A study of Rattus norvegicus with 10 samples.

Results

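The genes described here encode 8 channels that set how readily a resting sensory neuron fires. They are Kcnq3 and Kcnq5 of the Kv7 family, Hcn2 and Hcn3 of the HCN family, and Kcnk1, Kcnk2, Kcnk3 and Kcnk18 of the K2P family. They were picked by gene name from the count table, where each name had 1 row, out of 30560 rows, and all 8 had enough counts to be among the 15186 genes tested. Whole dorsal root ganglia of level L6, which hold the cell bodies of sensory neurons with their glia, were taken from Sprague Dawley rats of 7 to 8 weeks and their RNA was sequenced. The 5 treated samples came from rats dosed with SCN9A_2544, which is an siRNA of divalent design (0.75 mg) against the sodium channel gene Scn9a, and the 5 controls came from rats that received phosphate-buffered saline (PBS, 0 mg). Rats of both groups carried a lumbar intrathecal catheter through which 30 to 45 µL was given 5 days after its implantation, and rats of both groups received isoflurane and sustained-release meloxicam. The labels give 14 days as the time point of every sample, without saying which event the days count from. They do not say that each sample is 1 rat, so every p-value refers to sample-to-sample spread alone, which could be partly technical. No group given another siRNA, a small interfering RNA that directs cleavage of matching transcripts, was analysed here, so the sequence of SCN9A_2544 and dosing with any such RNA cannot be told apart.

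The membrane potential of a sensory neuron at rest is set by currents that flow without an action potential. Kv7 channels carry the M-current, a potassium current that opens just below the firing threshold, does not inactivate, and holds the neuron back until receptors such as those for bradykinin or acetylcholine shut it down. HCN channels pass a depolarising cation current that opens on hyperpolarisation and brings the cell back towards threshold, and K2P channels are potassium leak channels gated by acid, stretch, heat, lipids or calcium signals. In dorsal root ganglia these channels are studied for their part in the excitability of pain-sensing neurons.

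Libraries held 11832376 to 15420006 estimated counts. Levels are given as CPM, the usual scaling of a gene's count to the total of its library, with edgeR's TMM factors. They are not divided by transcript length and are compared only between samples of 1 gene. The target Scn9a averaged 85.4 ± 23.9 CPM in SCN9A_2544 ganglia and 175 ± 50.2 CPM in PBS ganglia (SD, n = 5 each), and its groups did not overlap. Of 20 pan-neuronal markers, 0 were at 0 in any library. Their mean ran from 7.18 to 8.45 log2 CPM in SCN9A_2544 libraries and from 7.45 to 8.53 in PBS libraries. SCN9A_2544 replicate 3, PBS replicate 3 and PBS replicate 5 stood lowest, at 7.18, 7.45 and 7.72, and they had the highest means of 15 Schwann cell and myelin genes, at 10.16, 9.97 and 9.69 log2 CPM. CPM is a share of the library total. In whole ganglia, fewer neurons, less RNA per neuron and a larger share of RNA from other cells therefore cannot be told apart.

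The first question, set by the study's design, was whether SCN9A_2544 changed genes other than its target. Of the 8 channel genes, 0 rose and 0 fell past an adjusted p of 0.05 in edgeR's quasi-likelihood test, and 0 of all 15186 genes did (0%), Scn9a included (log2 fold change -1.03, SE 0.25, adjusted p = 0.963). Adjusted p-values of the 8 ran from 0.963 to 0.992. At an unadjusted p under 0.05 there was 1 higher gene among the 8, Hcn3, and 0 lower, against 642 of all tested genes (4.23%, with 2.5% higher and 1.73% lower). DESeq2 called 0 of the 8 and 12 of all genes (0.079%). Over the 8 genes 6 log2 fold changes lay above 0, with a median of 0.33, beside 53.4% above 0 and a median of 0.02 over all genes. Of the 20 pan-neuronal markers 16 lay above 0, with a median of 0.03. Scaling by DESeq2 size factors or the upper quartile left 6 of the 8 above 0, and 11 or 10 of the 20 markers. In none of the 8 did the CPM ranges of the groups separate, as they did higher in SCN9A_2544 for 0.454% of all genes and lower for 0.211%. Exact permutation tests on log2 CPM were run for each of the 8 genes, two-sided, for which 5 against 5 libraries allow no p below 0.00794.

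Both Kv7 genes varied widely between libraries of the same group. Kcnq3 (ENSRNOG00000005206) encodes Kv7.3, a subunit that joins other Kv7 proteins to form the M-channel. It stood at 7.51, 5.78, 0.749, 1.76 and 5.32 CPM in SCN9A_2544 replicates 1 to 5, against 3.23, 5.39, 1.48, 3.76 and 3.94 CPM in PBS replicates 1 to 5. Replicate 3 was the lowest library in either group, SCN9A_2544 replicate 4 was also low, and the groups overlapped over most of their range. The edgeR log2 fold change of Kcnq3 was 0.24 (SE 0.53, 95% interval -0.91 to 1.40), while its mean log2 CPM differed by -0.04 (exact permutation p = 0.968), so the sign depends on how libraries are averaged. These values rest on 11 to 103 estimated counts per library.

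Kcnq5 (ENSRNOG00000013781) encodes Kv7.5, a further M-channel subunit. It stood at 40.7, 68.9, 14.3, 69.0 and 42.1 CPM in SCN9A_2544 replicates 1 to 5, against 38.2, 36.9, 9.98, 69.9 and 22.2 CPM in PBS replicates 1 to 5. Libraries near 69 CPM occurred in both groups, and replicate 3 was again lowest in each. The log2 fold change was 0.41 (SE 0.49, -0.65 to 1.47), and the exact permutation p on log2 CPM was 0.429.

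The HCN genes had smaller errors than the Kv7 genes. Hcn2 (ENSRNOG00000008831) encodes a channel that opens more readily when cyclic AMP rises, and in mice its loss from nociceptors reduces inflammatory and neuropathic pain. It stood at 151, 149, 53.3, 85.8 and 101 CPM in SCN9A_2544 replicates 1 to 5, against 103, 87.5, 31.7, 170 and 67.0 CPM in PBS replicates 1 to 5. The highest and the lowest of the 10 libraries were both PBS libraries. The log2 fold change was 0.23 (SE 0.40, -0.63 to 1.10), with an exact permutation p of 0.532.

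Hcn3 (ENSRNOG00000020444) encodes a family member that responds little to cyclic AMP. It stood at 36.7, 31.4, 17.0, 32.4 and 29.3 CPM in SCN9A_2544 replicates 1 to 5, against 24.1, 20.3, 12.4, 27.5 and 14.5 CPM in PBS replicates 1 to 5. In 4 of the 5 SCN9A_2544 libraries it was above every PBS library, and SCN9A_2544 replicate 3 lay within the PBS range. The means were 29.3 ± 7.43 CPM in SCN9A_2544 ganglia and 19.8 ± 6.34 CPM in PBS ganglia (SD, n = 5 each). The log2 fold change was 0.57 (SE 0.25, 0.02 to 1.12), a difference of 48.6%, with an edgeR adjusted p of 0.963 and an exact permutation p of 0.0873. With 1 library left out that p ran from 0.0238 (without SCN9A_2544 replicate 3) to 0.183 (without PBS replicate 5), and it was 0.0476 without PBS replicate 4.

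Kcnk1 was the 1 channel gene whose SCN9A_2544 libraries lay close together and low. Kcnk1 (ENSRNOG00000019937) encodes TWIK1, a weakly conducting leak channel. It stood at 68.2, 67.0, 74.6, 61.8 and 73.2 CPM in SCN9A_2544 replicates 1 to 5, against 56.7, 88.1, 108, 83.9 and 99.2 CPM in PBS replicates 1 to 5. Apart from PBS replicate 1, the lowest of all 10, every PBS library was above every SCN9A_2544 library. The means were 69.0 ± 5.12 CPM in SCN9A_2544 ganglia and 87.1 ± 19.4 CPM in PBS ganglia (SD, n = 5 each). The log2 fold change was -0.34 (SE 0.16, -0.69 to 0.02, edgeR adjusted p = 0.963), and the exact permutation p on log2 CPM was 0.119. With 1 library left out the log2 CPM difference ran from -0.45 to -0.22 and that p from 0.00794 to 0.222. The lowest p came without PBS replicate 1, and since that is the 1 PBS library among the SCN9A_2544 values, its removal fixes that p at the smallest possible. PBS replicate 1 had the highest pan-neuronal mean and the lowest Schwann cell and myelin mean of all 10 libraries.

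Kcnk2 (ENSRNOG00000002653) encodes TREK1, a leak channel opened by stretch, warmth and lipids. It stood at 16.8, 19.2, 11.2, 25.6 and 17.5 CPM in SCN9A_2544 replicates 1 to 5, against 20.5, 13.8, 18.5, 20.7 and 20.02 CPM in PBS replicates 1 to 5. The highest and the lowest library were both SCN9A_2544 libraries, and the PBS range lay inside theirs. Its log2 fold change was -0.05 (SE 0.21, -0.50 to 0.40), and the exact permutation p was 0.722. The interval holds differences of up to 0.50 downward, so the test does not show that the groups were equal.

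Kcnk3 (ENSRNOG00000009790) encodes TASK1, a leak channel that extracellular acid closes. It stood at 9.84, 7.75, 4.70, 11.9 and 7.61 CPM in SCN9A_2544 replicates 1 to 5, against 3.50, 6.19, 4.43, 10.4 and 3.60 CPM in PBS replicates 1 to 5. The PBS libraries were low except for replicate 4, and the SCN9A_2544 libraries were spread above and among them. Its log2 fold change was 0.58 (SE 0.34, -0.17 to 1.32), and its exact permutation p was 0.143. With 1 library left out that p ran from 0.0397, without PBS replicate 4, its highest PBS library, to 0.27. TASK1 is also made in vascular smooth muscle. Of 10 mural cell markers 3 lay above 0, beside 53.4% of all tested genes. The summed CPM of these markers was 214.5 to 437 in SCN9A_2544 and 137 to 462 in PBS libraries. The part of mural cells in the Kcnk3 values was not tested.

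Kcnk18 (ENSRNOG00000032706) encodes TRESK, a leak channel activated through calcium and calcineurin and known for its high level in sensory ganglia. It stood at 6.85, 6.39, 3.47, 3.15 and 9.83 CPM in SCN9A_2544 replicates 1 to 5, against 5.84, 4.26, 1.33, 7.52 and 3.40 CPM in PBS replicates 1 to 5. SCN9A_2544 replicate 5 was the highest library and PBS replicate 3 the lowest, with the rest mixed. The log2 fold change was 0.41 (SE 0.43, -0.53 to 1.36), with an exact permutation p of 0.405 and 19 to 146 estimated counts per library.

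**Figure D1:**
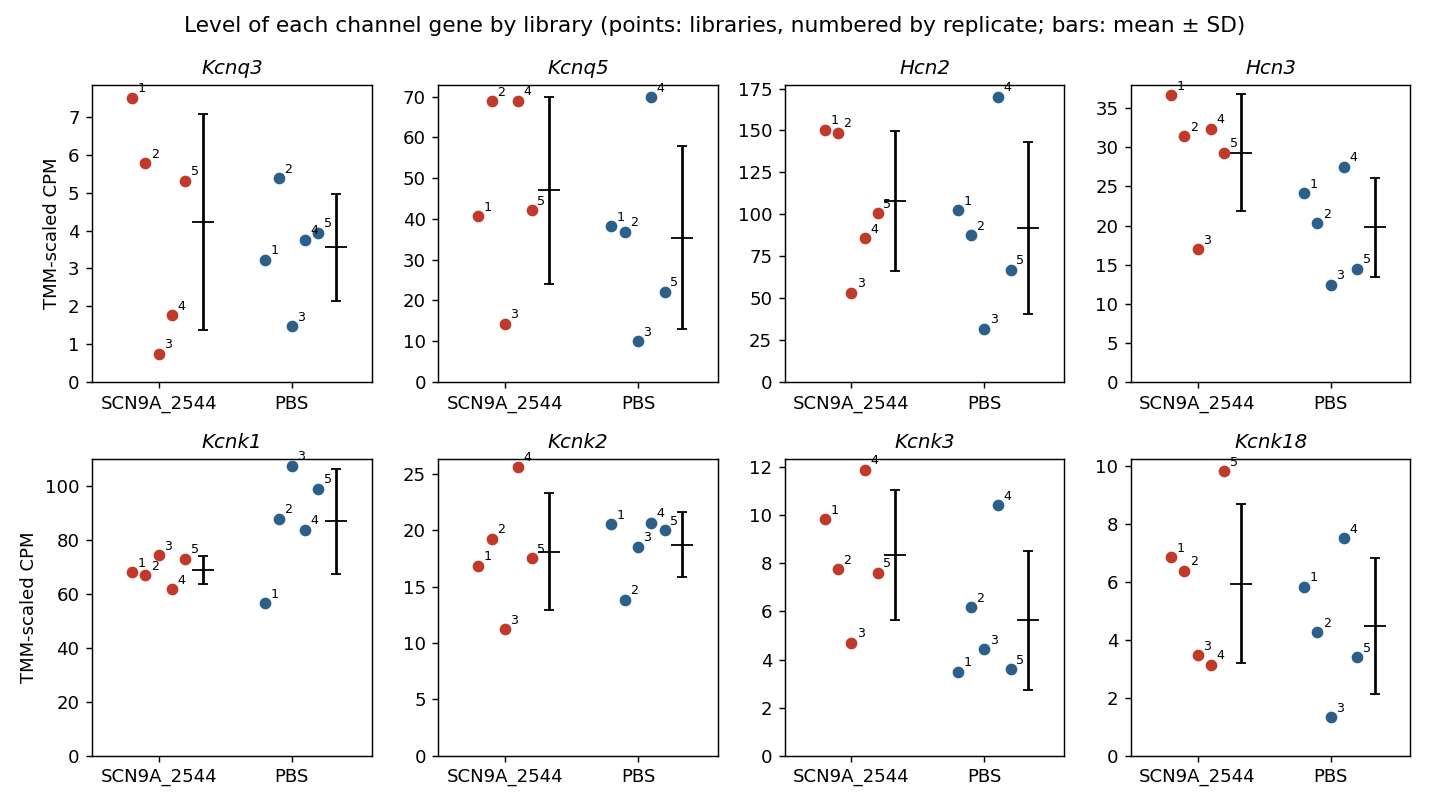
TMM-scaled CPM (vertical axis, from 0) of each of the 8 channel genes in the 5 SCN9A_2544 libraries (left) and the 5 PBS libraries (right). Points are libraries numbered by replicate, and bars are the mean ± SD; the groups overlap in every panel, and replicate 3 is the lowest PBS library for Kcnq3, Kcnq5, Hcn2, Hcn3 and Kcnk18.

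The second comparison was across libraries of both groups, by their level of pan-neuronal markers. Of the 8 channel genes 5 rose with the pan-neuronal mean past an edgeR adjusted p of 0.05 (Kcnq3, Kcnq5, Hcn2, Hcn3 and Kcnk18), and 0 fell. Among all tested genes 42.6% passed, 22% with a positive slope and 20.6% with a negative one. The slope is the log2 change of a gene per log2 unit of the pan-neuronal mean, with treatment in the fit, so a gene that follows the marker genes has a slope near 1.

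Over all 10 libraries Kcnq5 had the steepest slope of the 8, 1.78 (SE 0.30, edgeR adjusted p = 0.000663), and Kcnq3 had 1.62 (SE 0.52, adjusted p = 0.0255). The slope of Hcn2 was 1.34 (SE 0.23, adjusted p = 0.000637), that of Hcn3 0.88 (SE 0.12, adjusted p = 0.000144), and that of Kcnk18 1.21 (SE 0.35, adjusted p = 0.0149). The other 3 did not pass: Kcnk3 at 0.75 (SE 0.33, adjusted p = 0.0813), Kcnk2 at 0.35 (SE 0.21, adjusted p = 0.19) and Kcnk1 at -0.33 (SE 0.14, adjusted p = 0.0732). Kcnk1 had its highest CPM, 108, in PBS replicate 3, where Kcnq5, Hcn2 and Kcnk18 had their lowest. From the log2 CPM values, which a prior count of 2 draws together at low counts, the span over the 10 libraries was 1.90-fold for Kcnk1 and 2.27-fold for Kcnk2, against 8.62-fold for Kcnq3 and 6.92-fold for Kcnq5.

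The calls rest on the 3 libraries of lowest pan-neuronal mean. Without them 0 of the 8 genes and 198 of all genes passed, over a range of the pan-neuronal mean that was then narrow (8.12 to 8.53 log2 CPM). Errors were wider then, and too wide to put most of the slopes in order. Hcn2 stood at 2.02 (SE 0.74), Kcnk18 at 1.75 (SE 1.25) and Hcn3 at 0.75 (SE 0.47), while Kcnq5 stood at 0.30 (SE 1.03) and Kcnq3 at 0.38 (SE 1.56). Kcnk2 stood at 0.42 (SE 0.73), Kcnk3 at -0.66 (SE 1.24) and Kcnk1 at -0.74 (SE 0.52). Without PBS replicate 3 alone 3 of the 8 passed (Hcn2, Hcn3 and Kcnq5), with Kcnk18 at an adjusted p of 0.0563 and Kcnq3 at 0.0769. Without SCN9A_2544 replicate 3 the slope of Kcnq3 was 0.98 (adjusted p = 0.304), and Kcnk1 passed with a slope of -0.61 (adjusted p = 0.0239). Without PBS replicate 1 Kcnk3 passed with a slope of 0.97 (adjusted p = 0.0142).

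**Figure D2:**
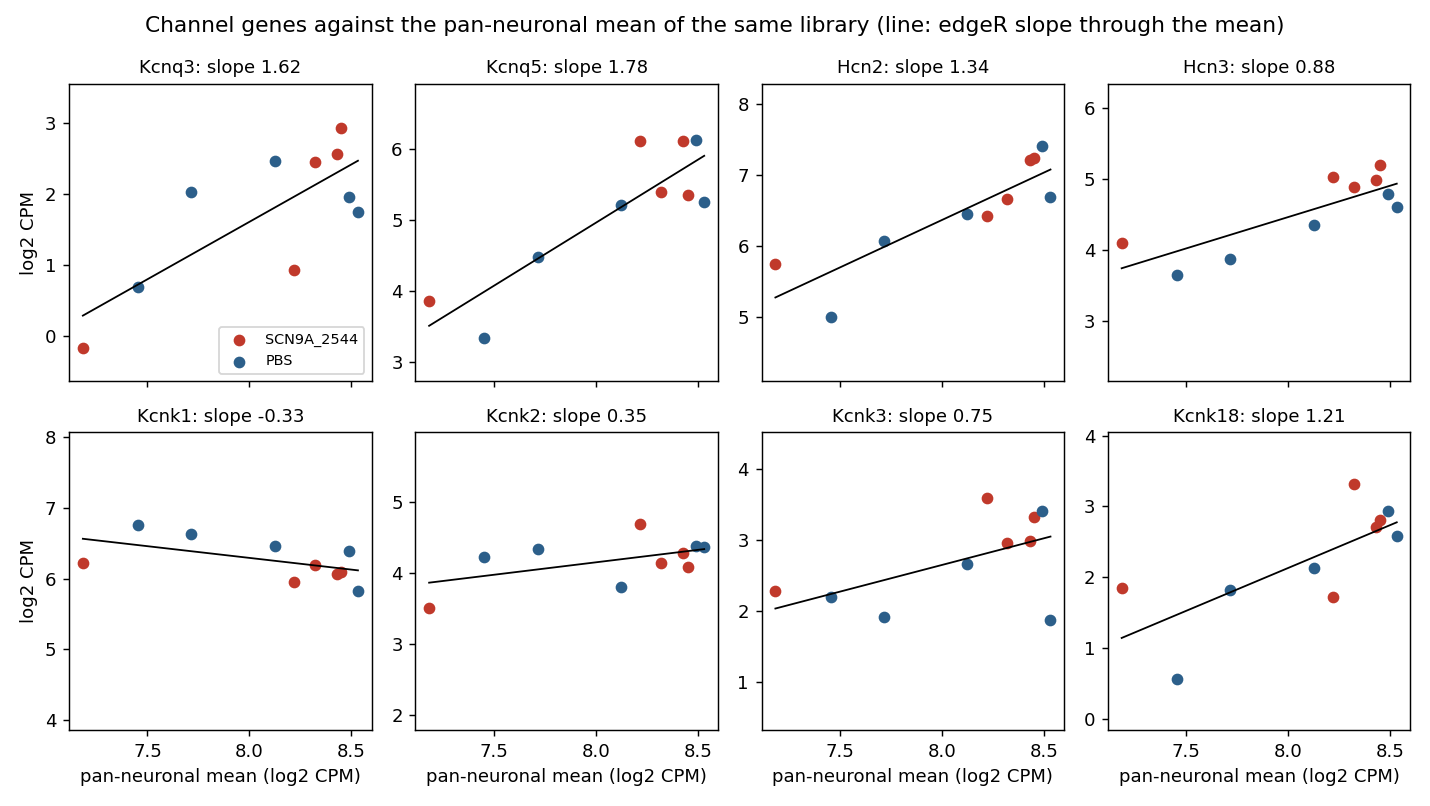
Log2 CPM of each channel gene (vertical axis, the same span in each panel) against the pan-neuronal mean of the same library (horizontal axis, log2 CPM), SCN9A_2544 libraries in red and PBS libraries in blue. The line has the edgeR slope; it is steepest for Kcnq5, at 1.78, and points down only for Kcnk1, at -0.33.

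Start-site sequences were found in RefSeq's GRCr8 table for 4 of the 8 genes (Kcnq5, Hcn2, Kcnk2 and Kcnk18), while the counts were made on build mRatBN7.2. The windows of Kcnq5, Hcn2 and Kcnk18, which moved together with the pan-neuronal mean, are shown 5′ to 3′, each 250 bases before to 50 after the annotated start. Capitals mark GC boxes (GGGCGG) and CCAAT boxes (CCAAT) on either strand, and adjoining matches run together.

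Hcn2, chr7:10639408-10639707, minus strand: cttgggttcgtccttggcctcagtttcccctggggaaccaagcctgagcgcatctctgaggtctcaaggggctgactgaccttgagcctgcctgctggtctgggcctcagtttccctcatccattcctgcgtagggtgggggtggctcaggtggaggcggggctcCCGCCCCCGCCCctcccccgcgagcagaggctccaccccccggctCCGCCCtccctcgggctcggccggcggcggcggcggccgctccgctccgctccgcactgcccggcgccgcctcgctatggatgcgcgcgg

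Kcnq5, chr9:31891232-31891531, minus strand: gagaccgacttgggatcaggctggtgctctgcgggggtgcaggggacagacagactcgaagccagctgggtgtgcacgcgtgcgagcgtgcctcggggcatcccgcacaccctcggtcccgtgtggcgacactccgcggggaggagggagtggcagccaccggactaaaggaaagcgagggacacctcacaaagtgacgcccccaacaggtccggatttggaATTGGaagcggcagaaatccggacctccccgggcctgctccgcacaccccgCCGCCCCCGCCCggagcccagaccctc

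Kcnk18, chr1:268360488-268360787, plus strand: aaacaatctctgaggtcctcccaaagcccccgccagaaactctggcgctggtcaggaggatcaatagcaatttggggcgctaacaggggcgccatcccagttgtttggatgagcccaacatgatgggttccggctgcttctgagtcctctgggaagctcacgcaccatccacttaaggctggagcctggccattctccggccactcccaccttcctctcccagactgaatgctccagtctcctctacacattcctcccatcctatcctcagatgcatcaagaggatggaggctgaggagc

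The GC box occurred 3 times in the Hcn2 window and 2 times in the Kcnq5 window, and 33.1% of the 33469 windows of the table held it at least once. The Kcnq5 window also held 1 CCAAT box, which 37.5% of all windows held. No match was found in these 3 windows for the TATA box (TATAAA, 14.2% of all windows), the cAMP response element (TGACGTCA, 1.83%), the AP-1 site (TGANTCA, 7.33%) or the half-sites of the RE1 silencer element (TTCAGCACC, 0.356%, and GGACAGCGC, 0.415%), all searched on both strands. The Hcn2 and Kcnq5 windows were 72.7% and 68.3% G or C, that of Kcnk18 was 56.7%, and the median of all windows was 51.7%. Kcnk2, whose slope did not pass, has a pair of annotated start sites in the table, with windows of 44.3% and 41.7% G or C and 0 matches to any of these motifs. These matches describe the letters of the windows only.

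Hcn3 was the channel gene that separated the groups once each library was set against its own pan-neuronal mean. Its log2 CPM minus that mean was -3.25, -3.45, -3.09, -3.20 and -3.44 in SCN9A_2544 replicates 1 to 5, against -3.93, -3.77, -3.80, -3.70 and -3.84 in PBS replicates 1 to 5. Every SCN9A_2544 library lay above every PBS library, including the replicates 3, whose pan-neuronal means were low. The means were -3.28 ± 0.16 in SCN9A_2544 ganglia and -3.81 ± 0.09 in PBS ganglia (SD, n = 5 each), a difference of 0.53. The exact permutation p was 0.00794, unadjusted over the 8 genes so tested and the smallest that these splits can give. The planned permutation test was on log2 CPM without subtracting the pan-neuronal mean, and this measure was an alternative to it. Of all tested genes 0.184% separated upward in this measure and 0.0395% downward.

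When edgeR's model held each library's pan-neuronal mean, the log2 fold change of Hcn3 was 0.54 (SE 0.10, 95% interval 0.31 to 0.76), with an unadjusted p of 0.000226 and an adjusted p of 0.217. It did not pass, and it ranked 15 of 15186 genes by p. In that fit 0 of the 8 genes passed and 0.00659% of all genes, which is Scn9a alone, at -1.10 (SE 0.12, adjusted p = 0.0157), a call that 8 of 17 alternatives did not give. DESeq2 with the same covariate called Hcn3 (log2 fold change 0.52, adjusted p = 0.00481) among 61 genes (0.402% of all). It was the only 1 of 17 alternatives to do so, and the other 16 did not call Hcn3. The adjusted p of Hcn3 was 0.406 with limma voom and 0.626 with the replicate block in edgeR. It was 0.725 in edgeR once the 3 libraries lowest in pan-neuronal markers were dropped. With 1 library left out, the edgeR adjusted p of Hcn3 ran from 0.0565 to 0.555.

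Marker lists of other cells and states gave the following values in the same libraries, with 0 members past an adjusted p of 0.05 in edgeR. Of all tested genes 53.4% had a log2 fold change above 0 and 2.5% were higher at an unadjusted edgeR p under 0.05. The mean of 9 satellite glia markers, genes of the cells that wrap the neuronal cell bodies, ran from 6.43 to 6.59 log2 CPM in SCN9A_2544 libraries and from 5.91 to 6.24 in PBS libraries, without overlap. How often the means of other gene sets separate was not worked out, and the nerve injury and macrophage means overlapped between the groups. Of the 9 satellite glia markers, 7 had a log2 fold change above 0 and 3 were higher at an unadjusted p under 0.05. Their summed CPM was 4395 to 5279 in SCN9A_2544 and 3139 to 4693 in PBS libraries, and 0 were at 0 in any library. Of 14 nerve injury genes 13 were tested, all 13 lay above 0 and 7 were higher at an unadjusted p under 0.05, with summed CPM of 729 to 1754 in SCN9A_2544 and 510 to 729 in PBS libraries. Sprr1a, of this list, was at 0 in at least 1 library. Of 13 macrophage markers 12 lay above 0 and 6 were higher at an unadjusted p under 0.05, with summed CPM of 278 to 787 in SCN9A_2544 and 193 to 340 in PBS libraries, and 0 were at 0. The part of these cells and states in the Hcn3 value was not tested.

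Among the other 7 genes the groups overlapped relative to the pan-neuronal mean, with exact permutation p-values from 0.111 for Kcnk3 to 0.881 for Kcnq3. With 1 library left out the difference of Kcnk3 ran from 0.31 to 0.70 and its p from 0.246 to 0.0476, the last without PBS replicate 4. At equal pan-neuronal mean the edgeR log2 fold change of Kcnq5 was 0.38 (-0.15 to 0.91) and that of Hcn2 0.23 (-0.19 to 0.65). Those of Kcnk3 and Kcnk18 were 0.53 (-0.08 to 1.13) and 0.44 (-0.22 to 1.09). Kcnk1 stood at -0.30 (-0.57 to -0.03, unadjusted p = 0.0338, adjusted p = 0.486), Kcnk2 at -0.09 (-0.48 to 0.30) and Kcnq3 at -0.11 (-0.99 to 0.77). An unadjusted p under 0.05 was thus reached by 2 of the 8, Hcn3 and Kcnk1, against 9.94% of all genes.

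**Figure D3:**
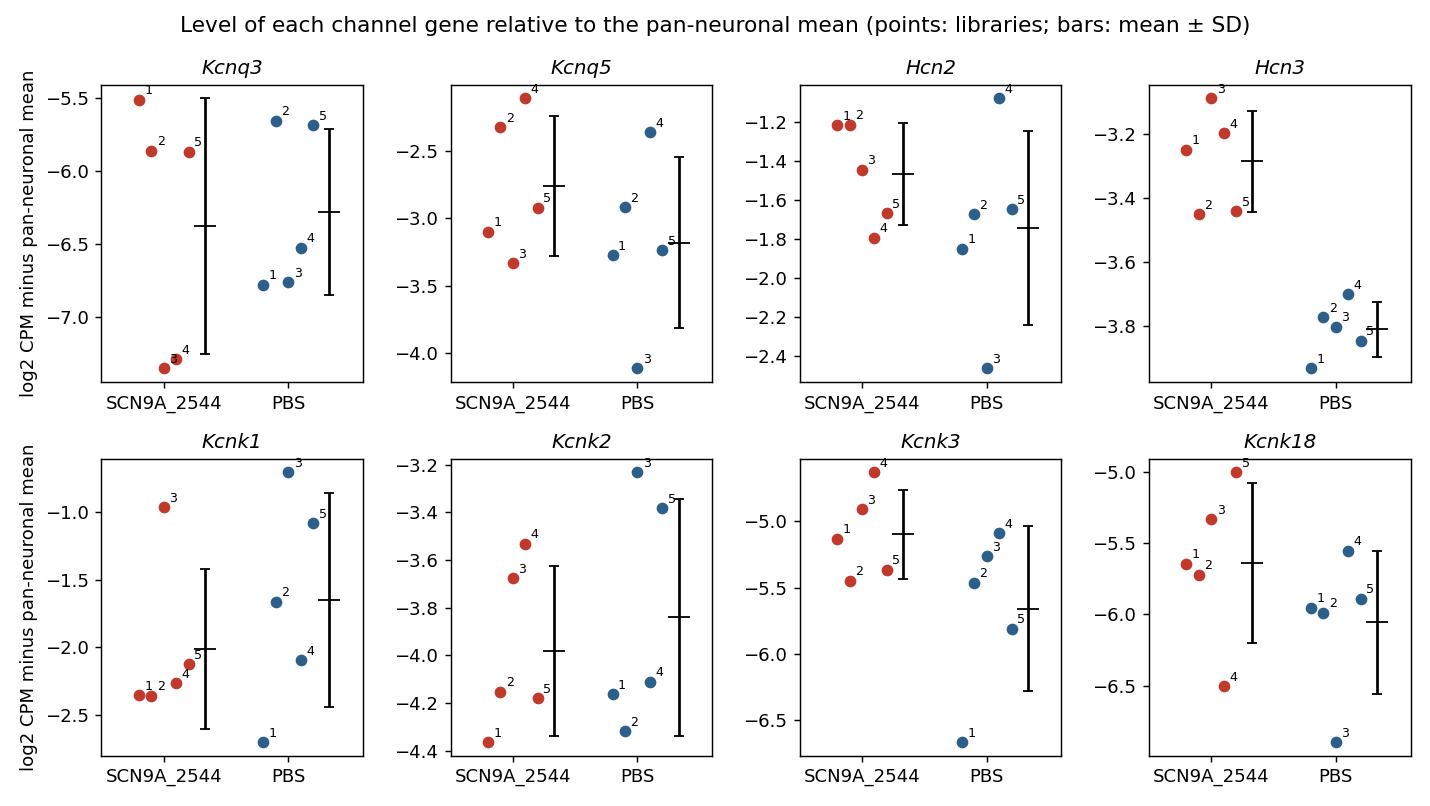
Log2 CPM minus the pan-neuronal mean of the same library (vertical axis) for each channel gene, in the SCN9A_2544 libraries (left) and the PBS libraries (right). Points are libraries numbered by replicate and bars the mean ± SD; Hcn3 is the panel without overlap, with SCN9A_2544 libraries from -3.45 to -3.09 and PBS libraries from -3.93 to -3.70.

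The remaining Kv7, HCN and K2P genes were described from a list of 15, of which 14 had a row and 9 had enough counts to be tested. Kcnq1, Kcnk7, Kcnk9, Kcnk15 and Kcnk16 stayed at or below 1.13 CPM in every library. Of the 9, 0 passed an adjusted p of 0.05 against 0% of all genes. Their log2 fold changes lay above 0 for 8, with a median of 0.30, beside 53.4% above 0 and a median of 0.02 over all genes. With the other scalings, by DESeq2 size factors or the upper quartile, 8 also lay above 0. Kcnk13, at under 5 CPM on average, was counted only. Hcn4, which encodes a slow HCN channel with a strong response to cyclic AMP, had a log2 fold change of 0.63 (SE 0.41). Hcn4 averaged 11.3 ± 4.28 CPM in SCN9A_2544 ganglia and 7.35 ± 4.85 CPM in PBS ganglia (SD, n = 5 each).

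Of the K2P genes, Kcnk12, encoding the silent subunit THIK2, averaged 23.0 ± 9.44 CPM in SCN9A_2544 and 15.5 ± 8.20 CPM in PBS ganglia (SD, n = 5 each). Its log2 fold change was 0.57 (SE 0.39). Kcnk4, encoding the stretch-gated TRAAK, stood at a log2 fold change of 0.27 (SE 0.32), and Kcnk10, encoding its relative TREK2, at 0.21 (SE 0.40). Kcnk5, encoding the alkali-activated TASK2, stood at 0.49 (SE 0.51), and Kcnk6, encoding TWIK2, at -0.20 (SE 0.29).

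Across libraries, most of these genes moved with the pan-neuronal mean. Positive slopes on the pan-neuronal mean passed for 6 of the 9 genes, among them Hcn4 (1.25), Kcnk4 (1.10), Kcnk10 (1.42) and Kcnk12 (1.20), which had edgeR adjusted p-values from 0.000271 to 0.00589. Negative slopes passed for 2, Kcnk5 (-1.59, adjusted p = 0.00015) and Kcnk6 (-0.74, adjusted p = 0.0201). Of all tested genes 22% passed with a positive slope and 20.6% with a negative one. Kcnk5 stood at 3.65, 6.87, 22.9, 5.48 and 5.05 CPM in SCN9A_2544 replicates 1 to 5, against 3.16, 4.72, 11.7, 5.04 and 6.74 CPM in PBS replicates 1 to 5, highest in replicate 3 of each group. Without the 3 libraries lowest in pan-neuronal markers the slope of Kcnk5 was -0.79 (adjusted p = 0.739) and 0 of the 9 passed.

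**Figure D4:**
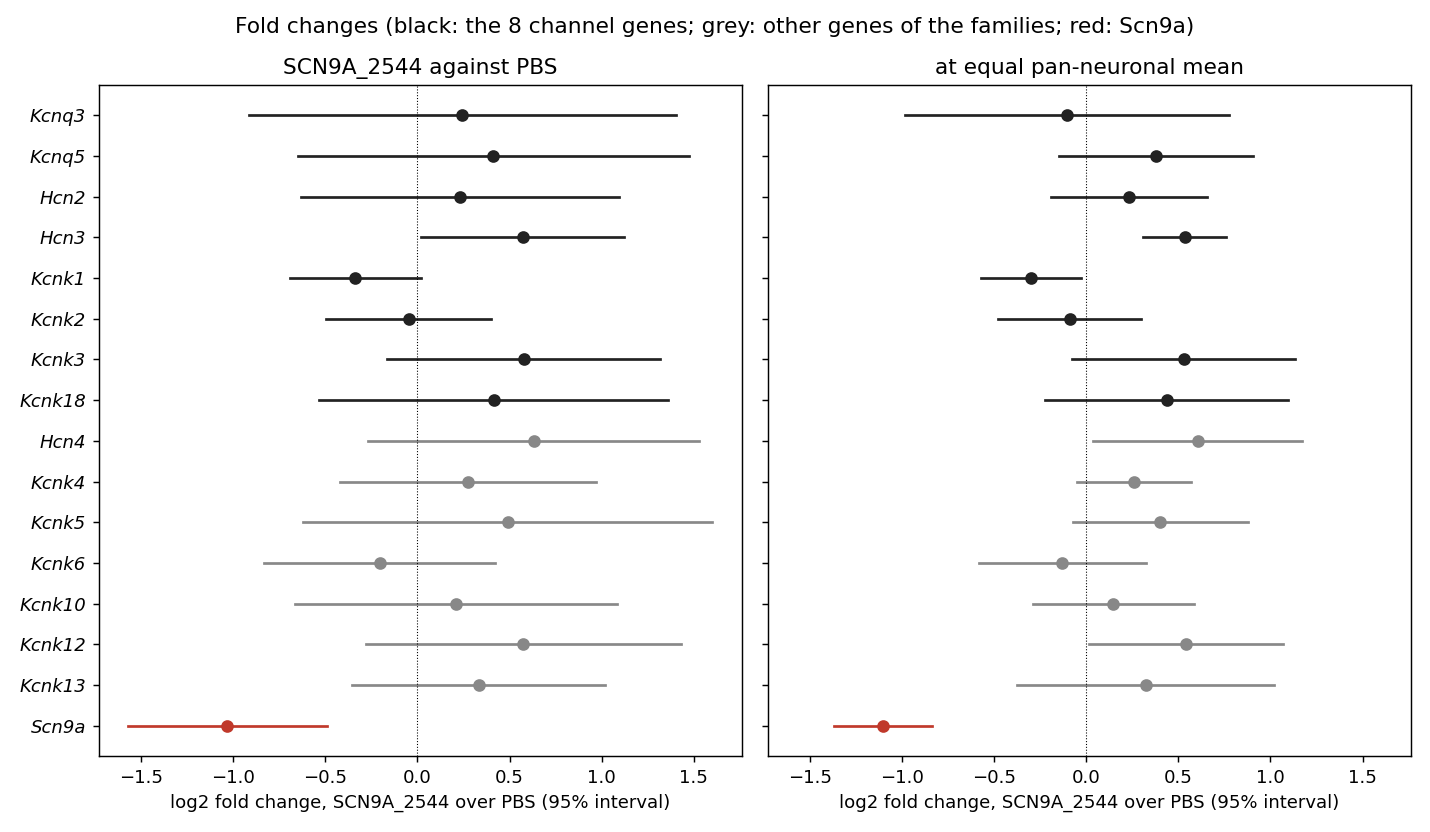
Log2 fold change of SCN9A_2544 over PBS (horizontal axis) with its 95% interval from edgeR, without a covariate (left) and at equal pan-neuronal mean (right). Black points are the 8 channel genes, grey points 7 other genes of the HCN and K2P families, and the red point Scn9a, at -1.03 (left) and -1.10 (right); among the black points the interval lies off 0 on the right for Hcn3 and Kcnk1.

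Of 17 listed partners and regulators of these channels, 13 rows of the table were tested and 0 passed. S100a10, which carries TASK1 to the membrane, Nedd4l, a ubiquitin ligase acting on Kv7 channels, Calm2, a calmodulin gene, and Sgk1, a kinase that opposes Nedd4l, had the smallest p. Their log2 fold changes were -0.22 (SE 0.16), 0.34 (SE 0.27), -0.24 (SE 0.20) and -0.39 (SE 0.34), each with an edgeR adjusted p of 0.963. Calmodulin and other near-identical copies share reads, and the division of reads among paralogs was made before deposit. Among the channel genes, fractions of a count occurred in 2 libraries for Hcn3 and in 1 each for Kcnq5 and Kcnk2.

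SCN9A_2544 replicate 4 set the channel genes apart from each other. It had the highest nerve injury mean of all 10 libraries, 5.20 log2 CPM, against 3.39 to 4.55 in the other SCN9A_2544 libraries and 3.15 to 3.42 in PBS libraries. It also had the highest macrophage mean, 4.91 log2 CPM, and the highest peptidergic neuron mean, 7.55 log2 CPM, of all 10. In it Kcnk2 and Kcnk3 were at their highest of all libraries, at 25.6 and 11.9 CPM, and Kcnq5 at 69.0 CPM was among the highest. Kcnq3, at 1.76 CPM, and Kcnk18, at 3.15 CPM, were low there, and its pan-neuronal mean was 8.22 log2 CPM. Relative to the pan-neuronal mean, Kcnk18 was lower in it than in any other SCN9A_2544 library, at -6.50. The difference between the groups in this measure was 0.42 (exact permutation p = 0.254). With 1 library left out it ran from 0.21 to 0.63 and the p from 0.492 to 0.0397, the last without SCN9A_2544 replicate 4, the lowest of its group. PBS replicate 4 also had high Kcnk2, Kcnk3 and Kcnq5, at 20.7, 10.4 and 69.9 CPM. Its nerve injury, macrophage and peptidergic neuron means were 3.42, 3.82 and 6.92 log2 CPM. SCN9A_2544 replicate 4 is 1 library. The part of nerve injury, macrophage and peptidergic neuron genes in these values was not tested.

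**Figure D5:**
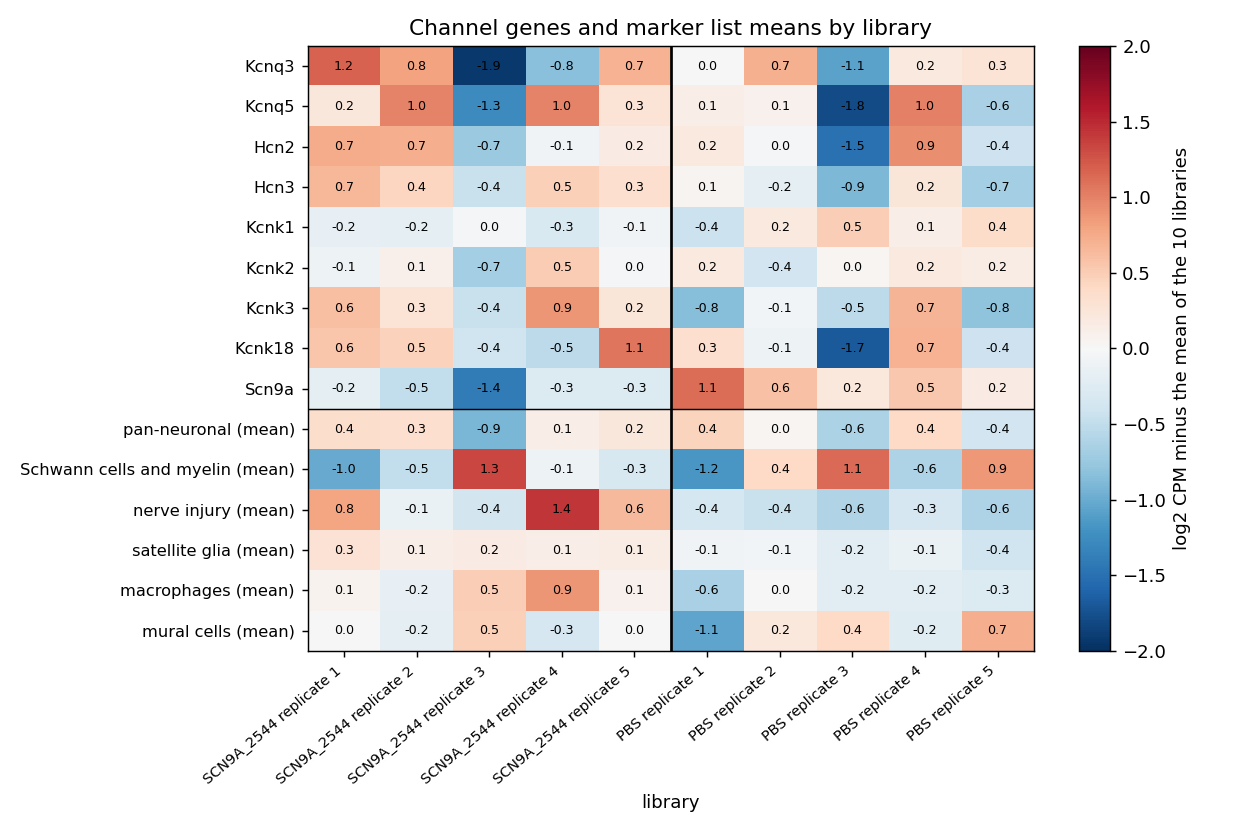
Log2 CPM minus the mean of the 10 libraries (colour and printed value) for the 8 channel genes and Scn9a (upper rows) and for marker list means (lower rows), SCN9A_2544 libraries left of PBS libraries. SCN9A_2544 replicate 4 has the highest nerve injury mean, at 1.43 above average, with Kcnk3 at 0.88 and Kcnk18 at -0.53.

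For each channel gene the closest profiles were sought among 13596 tested genes with a symbol, as the root mean square difference of centred log2 CPM over the 10 libraries. Hcn2 had the closest match, Ccdc92 at 0.12, followed by Panx2 and Iglon5, both at 0.13, beside a median of 0.76 over all genes. Hcn3 was closest to Ptprn and Dpysl5, both at 0.14, against a median of 0.57. For Kcnq3 the nearest were Stxbp5l at 0.22 and Fmn1 and Arfgef3 at 0.23 (median 0.98), and for Kcnq5 Fam174b at 0.26, Smpd3 at 0.27 and Cacng8 at 0.31 (median 0.95). Kcnk18 was nearest to Gpr161 at 0.19, Osbpl10 at 0.21 and Chac1 at 0.24 (median 0.80), and Kcnk3 to Adcy7 at 0.25, Hs3st3b1 at 0.26 and Foxo6 at 0.28 (median 0.66). Kcnk1, with a standard deviation of 0.28 over the libraries, was nearest to Cbx7, Tmem263 and Chpt1 at 0.12 to 0.13, and Kcnk2 to Pyurf, Acot9 and Xrcc4 at 0.12 to 0.15 (medians 0.43 and 0.45). The nearest profiles lie below the medians by selection, and genes of small spread, such as Kcnk1 and Kcnk2, lie close to others of small spread in this measure. Among the 8 genes themselves the closest pairs were Hcn2 with Kcnk18 and Hcn3 with Kcnk3, both at 0.37, and Hcn2 with Hcn3 at 0.38. The farthest pair was Kcnq5 with Kcnk1, at 1.10, and the Kv7 pair Kcnq3 and Kcnq5 stood 0.85 apart.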

How the data were processed

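RNA was sequenced from 10 samples, 5 per group, grouped by the labels' titles. Per the labels' protocols, poly(A) RNA was selected and read as pairs of 150 bases. The authors deposited estimated counts per gene, not normalized, with 11.6% to 12.4% of values in a library not whole. Per the submitters' processing notes, build mRatBN7.2 was used, with the tools STAR 2.7.10a and DESeq2 1.44.0. The sources used here give neither the counting program nor the annotation release or strand setting, so overlapping and antisense genes cannot be told apart.

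The design assumed counts, and the estimates were rounded to whole numbers. Genes were filtered with filterByExpr (minimum count 10, total 15), scaled with TMM and tested with edgeR 4.0.16 (quasi-likelihood F-test, Benjamini-Hochberg over all tested genes, threshold 0.05) in R 4.3.3. DESeq2 1.42.0 and limma 3.58.1 gave alternatives, and log2 CPM uses a prior count of 2. The SE of a log2 fold change is its size over the square root of F. The 8 genes, the lists and the choice of the pan-neuronal mean as a covariate were made with earlier results of these data known. Named besides the 8 were listed family genes of at least 5 CPM on average, the 4 partner genes of smallest p, and the 3 closest profiles per gene. Some genes that this rule would name are not reported here. Levels are limited by library totals of 11832376 to 15420006. Chi-square per gene between the 45 pairs of libraries was at least 7.70, so no pair agreed within sampling noise.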

Additional observations from a re-analysis of the deposited data

Results flagged for a closer look

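Within groups, 1 of 32 sets of 5 libraries, over the CPM and the neuron-relative level of the 8 genes, held a library far from the others, and about 1 in 20 would by chance. It was Kcnk1 relative to the pan-neuronal mean in SCN9A_2544 replicate 3, at -0.96 log2 units, while the other 4 SCN9A_2544 libraries lay between -2.36 and -2.12. That library had the lowest pan-neuronal mean of all 10, and its Kcnk1 level in CPM, 74.6, was near that of the others of its group.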

How the results depend on the processing

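Over 17 alternatives, 0 of the 8 channel genes passed for treatment without a covariate. The count over all genes was 12 with DESeq2, 1 with limma voom and library weights, 1 without the 3 libraries lowest in pan-neuronal markers, and 0 to 1 with 1 library left out. At equal pan-neuronal mean it was 61 with DESeq2, which called 1 of the 8, 3 with limma voom, 0 with the replicate block, and 0 to 4 with 1 library left out. Slope calls on the pan-neuronal mean were 0 genes and 0 of the 8 with the replicate block, and 198 and 0 without the 3 libraries lowest in pan-neuronal markers, and with 1 library left out 3 to 6 of the 8 passed. Same-numbered samples deviated together in only some pairs (correlations 0.38, 0.00500, 0.57, -0.00625 and 0.051), and 2 of 5 correlated best with their own number. So few values cannot decide whether the replicate numbers pair the samples.

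The log2 fold change of Kcnq3 was -0.11 with the pan-neuronal and -0.19 with the Schwann cell covariate, and -0.065 to 0.48 with 1 library left out. At equal pan-neuronal mean it was 0.16 with limma voom, 0.27 without the 3 libraries lowest in pan-neuronal markers, and -0.39 to 0.22 with 1 left out. Kcnk2 was at 0.20 with limma voom, 0.090 without those 3 and -0.21 to 0.049 with 1 left out, and at equal pan-neuronal mean at 0.0043, 0.13 and -0.24 to 0.054. Hcn2 was at -0.0017 without the 3. The slope of Kcnk3 was -0.66 without them, and that of Kcnk2 -0.016 to 0.46 with 1 left out. The log2 CPM difference ran, with 1 left out, from -0.34 to 0.41 for Kcnq3, 0.095 to 0.83 for Kcnq5, 0.00024 to 0.61 for Hcn2, 0.43 to 0.74 for Hcn3, -0.45 to -0.22 for Kcnk1, -0.22 to 0.043 for Kcnk2, 0.47 to 0.87 for Kcnk3 and 0.11 to 0.71 for Kcnk18. The edgeR log2 fold changes of Kcnq5, Hcn2 and Kcnk18 ran from 0.17 to 0.81, 0.013 to 0.58 and 0.15 to 0.68. The log2 difference of Hcn3 was 0.53 relative to the pan-neuronal mean (0.48 to 0.57 with 1 left out). That relative difference ran from -0.31 to 0.15 for Kcnq3 and from -0.26 to 0.013 for Kcnk2. The relative differences with 1 library left out were added after the separation of the groups in Hcn3 was seen. The causes of these shifts were not tested. Depth limits Kcnq3 and Kcnk18 most, at no more than 146 estimated counts per library.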

Other observations

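Other cells of the ganglion gave these values for SCN9A_2544 over PBS, with 0 genes passing in edgeR's quasi-likelihood test on any list and 0 at an unadjusted p under 0.05. Of all tested genes 53.4% lay above 0. Of fibroblast genes 0 of 6 lay above 0, and their summed CPM was 2738 to 6068 in SCN9A_2544 and 1319 to 10151 in PBS libraries. Endothelial genes lay above 0 for 5 of 8. Among sensory neuron classes, 7 of 9 genes of large myelinated neurons, 3 of 6 of peptidergic and 5 of 8 of non-peptidergic neurons lay above 0, as did 0 of 2 of C low-threshold neurons.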
